A study of Mus musculus with 4 samples.

Results

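The regions described here are the H3K23pr peaks over zinc finger protein genes of the mouse. These are protein-coding genes with a symbol that starts with Zfp and digits, followed by nothing else in 360 genes. H3K23pr is the propionylation of lysine 23 on histone H3. A peak was a member when it lay on chromosomes 1 to 19 and overlapped such a gene or the 2 kb on either side of it, called the gene window below. The rule used gene names and positions and no peak values. There were 388 Zfp genes among 20661 protein-coding genes, and their merged windows covered 14.5 Mb. They held 290 of the 53395 WT peaks on these chromosomes and 271 of the 41122 KO peaks. The members thus numbered 561 of the 96304 peaks in both lists, which also include the sex chromosomes.

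The study measured H3K23pr by ChIP-seq in the liver of male C57BL/6 mice in relation to fatty liver disease. WT is RPN11 flox/flox liver, and KO is liver with a hepatocyte-specific RPN11 knockout. Both genotypes had 1 immunoprecipitate (IP) and 1 input library, and the peaks of each IP were called against its own input. The Cre driver, the age and diet of the mice and the number of animals per library are not given in the sources used here, and cells other than hepatocytes keep RPN11 in a hepatocyte-specific knockout. RPN11 is encoded by Psmd14, which had 7 WT and 10 KO peaks of 4 to 7 fragments in its window. Peaks do not check a knockout, and they give no expression values with which the tissue label could be checked.

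Zfp genes are mostly C2H2 zinc finger genes, the largest family of DNA-binding proteins in mammals. Many also carry a KRAB domain, which recruits TRIM28 and the histone methyltransferase SETDB1 to silence transposable elements and imprinted regions. KRAB zinc finger genes multiplied by local duplication, so they lie in clusters of similar copies, and their fingers are usually encoded by the last exon, near the 3′ end. Others, such as Zfp423 and Zfp521, are single genes with roles in development, and the Zfp36 genes encode RNA-binding proteins with a different type of finger. Reads from near-identical copies can be hard to place, so values for clustered genes are uncertain at the level of the single gene.

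Direct overlap with an annotated Zfp promoter was rare. The promoter table of RefSeq (GRCm38.p6) held 394 promoters for 325 of the 388 genes, and 2 of them overlapped a WT peak (0.508%, against 0.463% of the 20084 promoters of all protein-coding genes). No KO peak overlapped a Zfp promoter, against 0.194% of all promoters. The 250 bases before the start site of both genes are shown, since they are the only Zfp promoters of that table under a peak. Both are on the plus strand, Zfp985 at chr4:147553027-147553276 and Zfp563 at chr17:33089117-33089366, and capitals mark the bases inside the WT peak.
Zfp985: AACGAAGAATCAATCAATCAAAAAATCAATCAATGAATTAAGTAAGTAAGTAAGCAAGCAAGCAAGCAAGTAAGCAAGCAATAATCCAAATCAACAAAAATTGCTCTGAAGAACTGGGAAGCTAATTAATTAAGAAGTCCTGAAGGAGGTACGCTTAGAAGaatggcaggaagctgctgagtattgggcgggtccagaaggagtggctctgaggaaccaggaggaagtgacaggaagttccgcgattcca
Zfp563: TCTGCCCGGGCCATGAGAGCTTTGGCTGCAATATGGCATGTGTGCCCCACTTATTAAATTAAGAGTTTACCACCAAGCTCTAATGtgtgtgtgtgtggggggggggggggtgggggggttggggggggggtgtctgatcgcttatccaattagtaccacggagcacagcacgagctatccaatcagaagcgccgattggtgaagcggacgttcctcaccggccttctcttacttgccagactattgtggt

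The Zfp985 peak had 7 IP fragments at its summit, a fold of 4.70 over the local background by the authors' caller, and its summit lay 256 bp before the start site. The Zfp563 peak had 7 fragments and a fold of 4.73, with the summit 338 bp before the start. In both, the peak covered the far side of the window, 161 and 85 of the 250 bases, and not the start site. The GC box GGGCGG, searched on both strands, was present in the Zfp985 sequence outside the peak and not in that of Zfp563, and it was found in 40.1% of Zfp promoters and 43.4% of all promoters in the same 250 bases. KO had 4 peaks elsewhere in the Zfp985 window and 1 in that of Zfp563. Both overlapped promoters belong to clustered genes, which hold 190 of the 394 Zfp promoters, and 2 promoters are too few to compare. Clustered Zfp promoters had a median GC content of 52.4% against 57% in the other Zfp promoters.

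Zfp genes as a whole carried fewer WT peaks per Mb than other protein-coding genes, and about the same number in KO. WT had 20 peaks per Mb of Zfp windows (exact Poisson 95% interval 17.8 to 22.4) and 23.8 per Mb in the windows of other protein-coding genes (23.5 to 24.1). The ratio was 0.84 (0.746 to 0.943). KO had 18.7 per Mb over Zfp genes (16.5 to 21) and 18.1 over other genes (17.8 to 18.4), a ratio of 1.03 (0.912 to 1.16). Relative to all other peaks on chromosomes 1 to 19, the odds of a member peak being in the KO list were 1.21 times those of the rest (exact conditional interval 1.03 to 1.44). Without 1 cluster of 12 genes on chromosome 4, described further on, these odds were 1.04 (0.86 to 1.25), and the KO density ratio to other genes was 0.871 (0.757 to 0.997). With 1 library per genotype there is no test of genotype, and all intervals cover counting error only and treat peaks as independent.

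**Figure D1:**
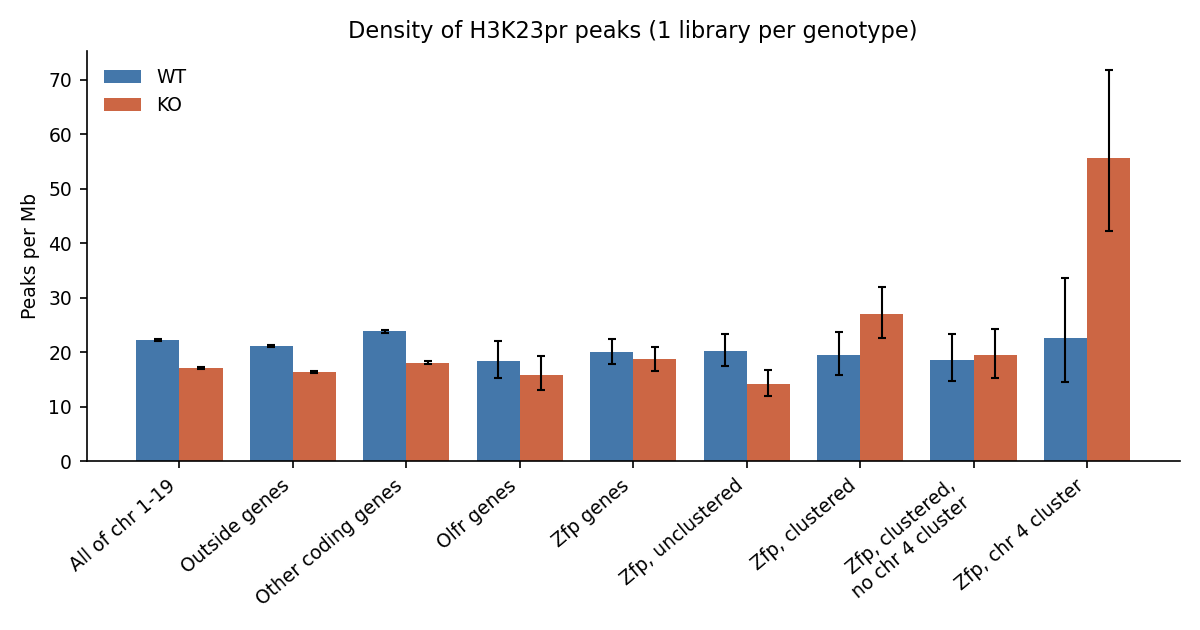
Peaks per Mb in WT (blue) and KO (orange), 1 library each, for chromosomes 1 to 19 and for groups of genes with 2 kb on either side. Bars are densities and lines are exact Poisson 95% intervals. The Zfp cluster on chromosome 4 stands at 55.6 peaks per Mb in KO and 22.6 in WT, and the other groups lie between 14.2 and 27 per Mb.

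The member peaks were low. They ranged from 4 to 10 summit fragments in both lists, with a median of 5, and none had 11 or more, a level reached by 153 other WT peaks and 195 other KO peaks. Peaks of 4 or 5 fragments made up 64.1% of the WT members and 66.8% of the KO members. Median folds of 3.52 (WT members) and 3.83 (KO members) equalled those of the remaining peaks of each list. At a caller q of 0.05 or smaller, 24 WT members (8.28%) and 87 KO members (32.1%) remained, against 9.62% and 27.4% of the other peaks. The chromosome 4 cluster held 29 of these KO members (49.2% of its 59 KO peaks) and 3 of these WT members (12.5% of its 24). This q level fell at fewer fragments in KO than in WT. WT members of 6 fragments had a −log10 q of up to 1.07 and did not reach it. Members of 6, 7 and 8 or more fragments numbered 69, 22 and 13 in WT and 53, 23 and 14 in KO. The 87 KO members thus include some below 7 fragments. In the cluster these numbers were 4, 7 and 1 in WT and 16, 6 and 7 in KO. WT members had a median width of 132 bp and KO members of 90 bp. The caller, run in paired-end mode, reported a fragment size of 97 bp for WT and 71 bp for KO. The part of fragment size in peak width and number was not tested.

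The highest members mostly lay inside their genes. Zfp653 on chromosome 9 (22062581 to 22062684) and Zfp648 on chromosome 1 (154207236 to 154207671) each had a WT peak of 10 fragments, with folds of 5.50 and 4.44. Zfp653 had no KO peak, and Zfp648 had 2 of up to 7 fragments. Zfp462, a developmental regulator, had the WT member with the highest fold, 5.91, from 9 fragments (chromosome 4, 54989375 to 54989511). In KO, 5 members had 10 fragments, over Zfp654, Zfp984, Zfp600, Zfp775 and Zfp993. The highest fold in KO, 7.02, was shared by Zfp654 (chromosome 16, 64791830 to 64791938) and Zfp984 (chromosome 4, 147803139 to 147803409). The 7-fragment KO peak of Zfp648 began at 154207672, next to the end of the WT peak. Zfp984 and Zfp993 belong to the chromosome 4 cluster, and Zfp600 lies just before it.

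Counted by gene, a KO peak without a WT peak was found in a larger share of Zfp genes than of protein-coding genes in general. A WT peak was found in the window of 149 Zfp genes (38.4%, Clopper-Pearson interval 33.5 to 43.4). The interval includes the 43.1% of all protein-coding genes. A KO peak was found in 138 (35.6%, 30.8 to 40.6), against 30.5% of all. Without the chromosome 4 cluster this share was 33.5% (28.8 to 38.5), an interval that includes 30.5%. Genes with a peak in both lists numbered 71 (18.3%, against 22.4%), and 78 had a WT peak only (20.1%, against 20.8%). A KO peak only was found in 67 genes, 17.3% (13.6 to 21.4) against 8.06% of all protein-coding genes, and without the chromosome 4 cluster the share was again 17.3% (13.6 to 21.5). No peak in either list was found for 172 genes (44.3%, against 48.8%). More KO than WT peaks were counted in 89 genes (22.9%, against 14.6%), and more WT than KO peaks in 97 (25%, against 30.6%).

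In KO, the share of Zfp genes with a peak was above that of other genes of their length between 10 and 20 kb, where the chromosome 4 cluster has no gene. Zfp genes had a median length of 18 kb, close to the 17.5 kb of other genes. Of the 156 Zfp genes between 10 and 20 kb, 47 had a KO peak (30.1%, interval 23.1 to 38), against 16.7% of other genes of that length, and 33 had a WT peak (21.2%, 15 to 28.4), against 29.5%. Between 20 and 40 kb, 53 of 120 had a KO peak (44.2%, 35.1 to 53.5, against 31.9%) and 57 a WT peak (47.5%, against 50.3%). Without the chromosome 4 cluster the KO share here was 46 of 113 (40.7%, 31.6 to 50.4), an interval that includes the share of other genes. Up to 10 kb the KO shares were 6.9% of 58 Zfp genes and 6.69% of other genes. Between 40 and 100 kb, 28 of 31 Zfp genes had a WT peak (90.3%, 74.2 to 98, against 76.2%) and 15 a KO peak (48.4%, 30.2 to 66.9, against 56.6%). All 23 Zfp genes over 100 kb had a WT peak and 19 of them a KO peak, against 95.9% and 85.7% of other genes of that length.

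The Zfp genes with the most peaks were either very long or on chromosome 4. The 12 genes with the most peaks covered 23.7% of the Zfp windows and held 24.5% of the WT and 34.7% of the KO members. Zfp993, a gene of 479 kb on chromosome 4, came first, with 4 WT and 20 KO peaks. Zfp407 followed with 9 and 13, and Zfp978 had 5 and 13. Zfp385b (12 WT and 7 KO) and Zfp804b (13 and 6), genes of 407 and 575 kb, had more WT peaks. Zfp423, a factor of preadipocyte commitment, had 7 WT and 2 KO peaks. Zfp536, a regulator of neuronal differentiation, had 6 in each list.

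Long Zfp genes outside the chromosome 4 cluster mostly had more WT peaks, as other long genes did. Of 21 Zfp genes over 100 kb outside that cluster, 13 had more WT and 4 had more KO peaks, with medians of 4 and 2 peaks per gene. Of 2289 other protein-coding genes over 100 kb, 1376 had more WT and 651 more KO peaks, with medians of 5 and 3. Zfp704 had 7 WT peaks and 1 KO peak, Zfp277 had 6 and 1, and Zfp618 had 4 and 0. Zfp277, and Zfp599 further on, were named after their values were seen. More KO peaks were counted in Zfp148, which encodes a GC-rich sequence binding factor, with 2 WT and 7 KO peaks, and in Zfp609, with 4 and 7. In density, all Zfp genes over 100 kb were close to the shorter ones, with a ratio of 0.988 in WT (0.771 to 1.26) and 0.99 in KO (0.766 to 1.27).

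**Figure D2:**
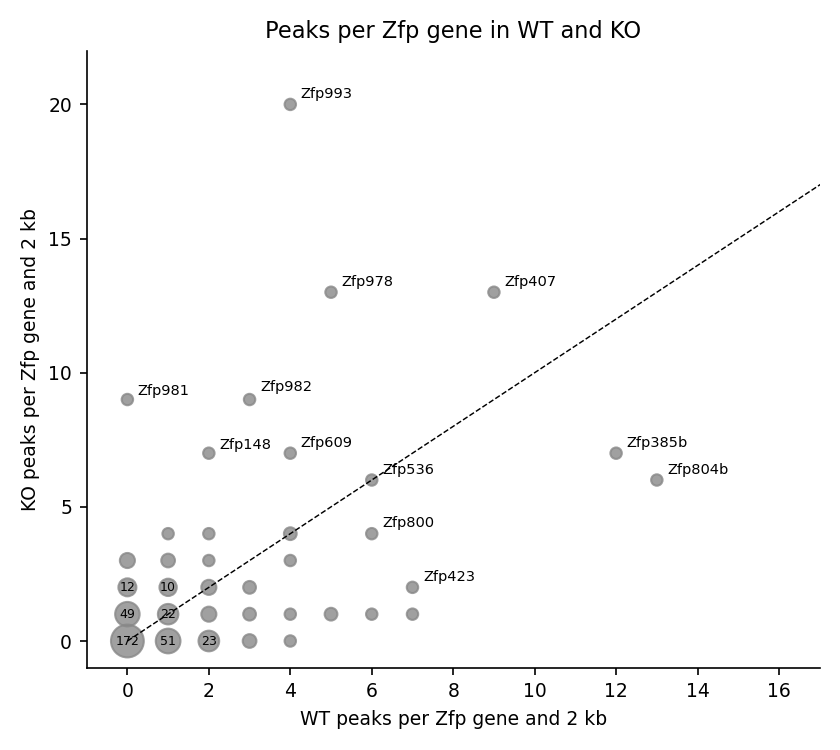
KO peaks (vertical axis) against WT peaks (horizontal axis) in each Zfp gene and 2 kb around it. Point area grows with the number of genes at a position, printed where it is 10 or more, and the dashed line marks equal numbers. Zfp993, with 4 WT and 20 KO peaks, lies furthest above the line, and 172 genes have no peak in either list.

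Clusters were defined as 3 or more Zfp genes with gaps of at most 200 kb, which gave 29 clusters with 197 genes and left 191 genes outside. In WT both kinds had a like density, with 99 peaks in clustered genes (19.5 per Mb, 15.8 to 23.7) and 191 in the others (20.3 per Mb, 17.5 to 23.4), a ratio of 0.961 (0.746 to 1.23). In KO the clustered genes held 137 peaks (27 per Mb, 22.6 to 31.9) and the others 134 (14.2 per Mb, 11.9 to 16.8), a ratio of 1.89 (1.48 to 2.42). The odds of a KO peak relative to all other peaks were 1.8 for clustered genes (1.38 to 2.36) and 0.911 for the others (0.724 to 1.14). Without the cluster on chromosome 4, the KO ratio of clustered to other genes was 1.36 (1.02 to 1.82) and the odds for clustered genes were 1.35 (0.971 to 1.88).

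The cluster on chromosome 4 (146449030 to 147849126, mm10) held much of the difference between the lists. Its 12 genes cover 7.32% of the Zfp windows and held 8.28% of the WT members but 21.8% of the KO members, 24 and 59 peaks. This is 22.6 per Mb in WT (14.5 to 33.6) and 55.6 per Mb in KO (42.3 to 71.7). Against the windows of other protein-coding genes, the density ratio was 0.95 in WT (0.609 to 1.41) and 3.07 in KO (2.34 to 3.96). The KO odds relative to all other peaks were 3.2 (1.96 to 5.37). It was the only one of the 29 clusters whose interval excluded 1. The cluster was singled out after the counts were seen.

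KO peaks outnumbered WT peaks in 8 of the 12 genes of this cluster, and the reverse was true of 1, but some genes overlap and share peaks. Counts over the 12 genes add up to 26 in WT and 73 in KO, for 24 and 59 distinct peaks. Zfp981 had 0 WT and 9 KO peaks, of 4 to 8 fragments. All 9 also lie in the window of Zfp993, whose gene overlaps it. Zfp982 had 3 and 9, Zfp984 had 2 and 4, Zfp988 had 1 and 4, which are also counted for Zfp978, since Zfp988 lies inside it, and Zfp979 had 0 and 3. Zfp534 had 2 and 3. Zfp985 had 4 in each list, Zfp992 had 2 and Zfp991, also inside Zfp978, had 1, and Zfp933 had 2 in WT and 1 in KO. Zfp991 and Zfp933 were named only to account for every gene of the cluster. KO peaks with 8 or more fragments numbered 7 here, of 14 among all KO members, and WT had 1 of 13.

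**Figure D3:**
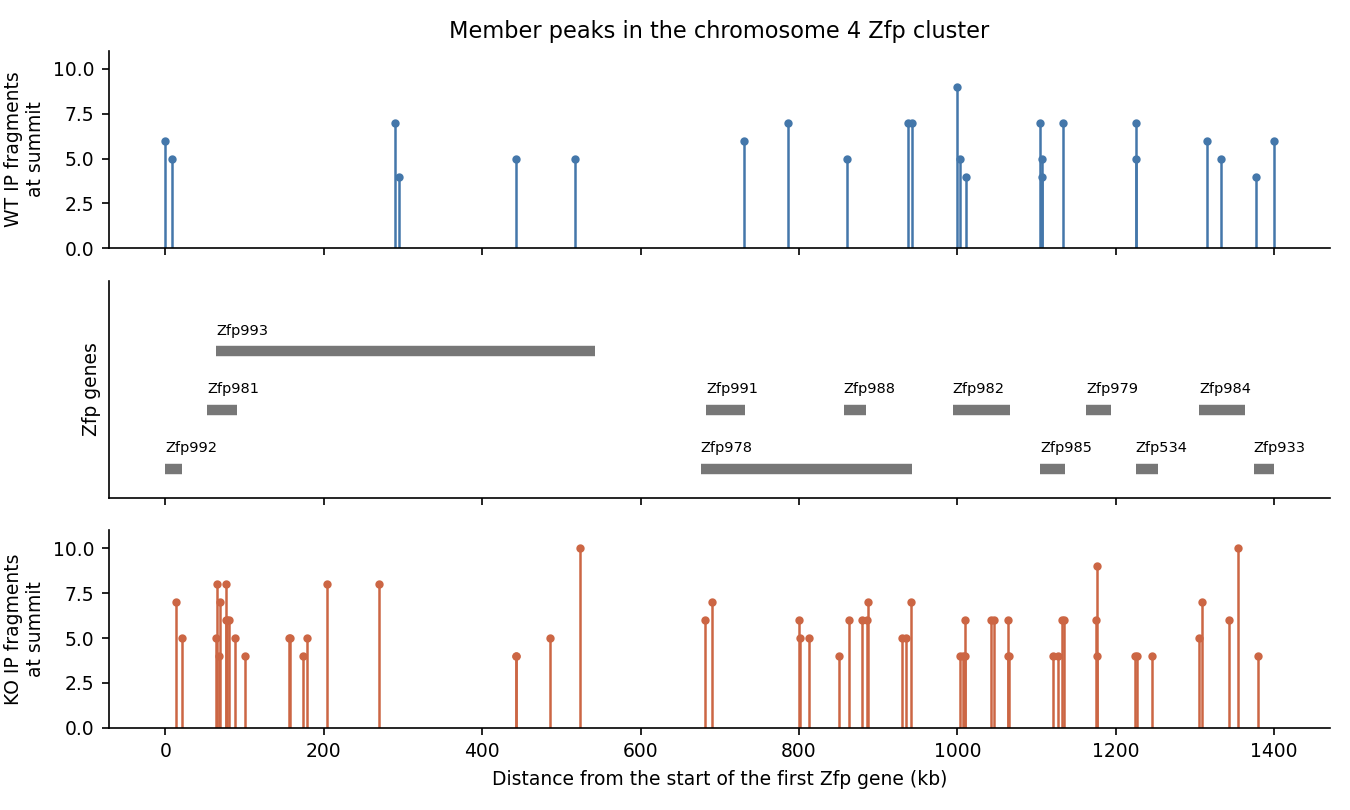
Member peaks in the chromosome 4 cluster, as IP fragments at each summit (vertical axes) against the distance from the start of the first Zfp gene in kb. The upper panel is WT with 24 peaks, the lower panel is KO with 59, and grey bars between them are the 12 Zfp genes. KO peaks are dense over Zfp981 and the start of Zfp993, where WT has none.

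KO peaks were also dense between the Zfp genes of this stretch. Between their windows, in 0.343 Mb of the same cluster, there were 18 WT peaks (52.5 per Mb, 31.1 to 83) and 32 KO peaks (93.3 per Mb, 63.8 to 132). The Zfp windows were thus less dense than the sequence between them, with a ratio of 0.431 in WT (0.224 to 0.842) and 0.596 in KO (0.381 to 0.947). Of the peaks between the windows, 38.9% in WT and 21.9% in KO had 8 or more fragments. Over chromosomes 1 to 19 these shares were 4.3% and 3.45%. The median fold between the windows was 2.96 in WT and 3.94 in KO, against 3.52 and 3.83 over these chromosomes. Rex2, the only protein-coding gene of the cluster span without a Zfp symbol, had 3 WT and 9 KO peaks. It overlaps Zfp993 in part, so its window does not lie wholly between the Zfp windows. In the 1 Mb before the cluster WT had 10 peaks and KO 25, and in the 1 Mb after it WT had 21 and KO 3. The 1 Mb before holds other Zfp genes, Zfp600 among them. Pieces of 468 kb before the cluster with 14.3% and 16.9% Zfp windows had 6 WT and 13 KO peaks, and 3 and 11. The next piece outwards, with 0.471% Zfp windows, had 12 WT and 5 KO peaks. The WT peaks of the cluster also stood on a raised local background. In 37.5% of them it exceeded the list's most common level, 0.692 fragments, by more than a small set margin, against 12.4% of all WT members. Values just above that level, such as 0.725, were not counted as raised. In KO the share with a raised background was 15.3% in the cluster and 19.6% in all members, over a level of 0.568. The part of background and of near-identical sequence in these counts was not tested.

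Most clusters held few peaks. Over all 29, chromosome 4 included, KO had more peaks in 12 clusters, WT in 8, 4 had equal numbers and 5 clusters with 22 genes had no peak at all. The cluster with the most genes, 23 on chromosome 13 (67038594 to 67827000), had 8 WT and 12 KO peaks, spread thinly over the genes. Zfp459, its gene of most peaks by the naming rule, had 1 of each. The 18 genes on chromosome 17 from 21383707 had 6 and 5. The 15 genes on chromosome 7 from 29768552, which include Zfp568, a repressor of a placental Igf2 transcript, had 5 and 6. The 12 genes on chromosome 17 from 32765496, with Zfp799, had 8 and 9. The 12 on chromosome 7 from 24081877, with Zfp111, had 4 and 0.

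Outside chromosome 4, the intervals of clusters with unequal counts included equality. The 7 genes on chromosome 6 from 47815536 had 10 WT and 2 KO peaks, with KO odds of 0.26 (0.0277 to 1.22). The 8 genes on chromosome 7 from 27674661 had 4 and 9 (2.92, 0.815 to 13). All 10 clusters of chromosome 7, with 71 genes, together had 18 WT and 20 KO peaks. Inside clusters but without chromosome 4, KO was denser in the Zfp windows than between them, with 19.4 against 11.1 peaks per Mb, a ratio of 1.75 (1.2 to 2.59). The WT ratio was 0.985 (0.707 to 1.37). Between the windows KO had 45 peaks and WT 77, and in the windows they had 78 and 75, so that the odds differed 1.78 times (1.06 to 2.98). This comparison was added after the data were seen.

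**Figure D4:**
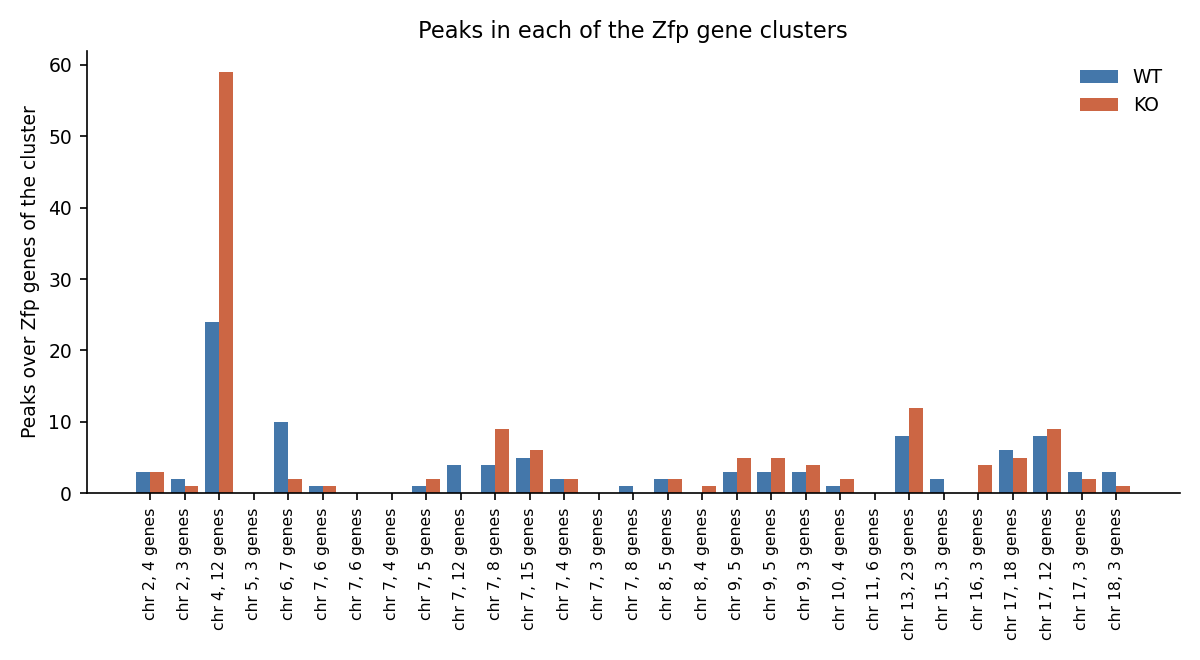
Number of WT (blue) and KO (orange) peaks over the Zfp genes of each of the 29 clusters, named by chromosome and number of genes and ordered along each chromosome. The chromosome 4 cluster has 24 WT and 59 KO peaks, and no other cluster has more than 12 in either list.

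Members near gene ends were as common as the length of those ends would give. The 2 kb on either side of both ends made up 20.9% of the Zfp windows and held 58 WT members (20%, 15.6 to 25.1) and 60 KO members (22.1%, 17.3 to 27.6). Other protein-coding genes differed in KO. Their ends made up 13.4% of window length and held 12.1% of the WT peaks (11.6 to 12.5) and 9% of the KO peaks (8.59 to 9.42). Zfp ends had 19.8 KO peaks per Mb (15.1 to 25.5) against 12.2 at the ends of other genes (11.6 to 12.8), a ratio of 1.62 (1.23 to 2.1). Without the chromosome 4 cluster the ratio was 1.34 (0.986 to 1.79). In WT it was 0.892 (0.675 to 1.16). By gene, 54 Zfp genes had a WT peak near an end (13.9%, against 14.7% of all protein-coding genes) and 51 a KO peak (13.1%, 9.95 to 16.9, against 8.05%, and 11.2%, 8.17 to 14.8, without the chromosome 4 cluster).

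The 3′ ends held more of these peaks than the 5′ ends. Strand was known for 325 Zfp genes. Within 2 kb of their 5′ ends there were 16 WT peaks (12.5 per Mb, 7.14 to 20.3), and within 2 kb of their 3′ ends 32 (24.9 per Mb, 17 to 35.1), a ratio of 1.99 (1.06 to 3.89). KO had 19 and 34, a ratio of 1.78 (0.988 to 3.31). For other protein-coding genes the ratio was 1.02 in WT (0.946 to 1.11) and 1.17 in KO (1.06 to 1.3). Without the chromosome 4 cluster the Zfp ratios were 2.13 in WT (1.1 to 4.36) and 1.52 in KO (0.796 to 2.99).

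**Figure D5:**
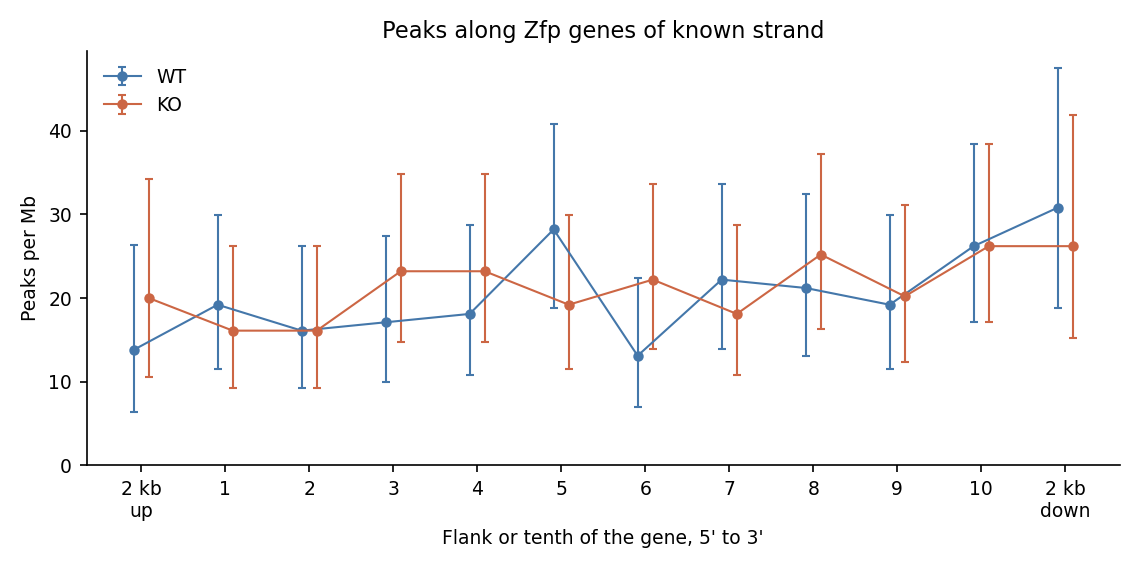
Peaks per Mb by midpoint along the 325 Zfp genes of known strand, in the 2 kb before the gene, in 10 equal bins of the gene from 5′ to 3′ and in the 2 kb after it. Points are WT (blue) and KO (orange) with exact Poisson 95% intervals. In WT the density goes from 13.8 per Mb before the gene to 30.8 after it, with intervals that overlap.

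Among the Zfp genes with the strongest WT peaks near ends were Zfp7 (8 fragments, 5.32-fold), Zfp664 (8 fragments, 4.92-fold, 3′ end), Zfp212 (7 fragments, 4.73-fold, 3′ end), Zfp687 (7 fragments, 4.53-fold, 3′ end) and Zfp281. Zfp281, a factor of pluripotent cells, had a WT peak of 9 fragments at its 5′ end on chromosome 1 (136626155 to 136626268) and a KO peak of 4 fragments at its 3′ end. The strongest KO peaks near ends included those over Zfp993, Zfp978 and Zfp988 of the chromosome 4 cluster. Elsewhere, Zfp426 and Zfp597 (3′ end) and Zfp729b (strand not known) had peaks of 7 fragments and 5.10-fold each. Zfp143, a factor bound at many promoters, had 7 fragments and a fold of 4.85 at its 3′ end. The 7 genes with a peak near an end in both lists (1.8%, 0.728 to 3.68, against 1.52% of all protein-coding genes) were Zfp978, Zfp985, Zfp534, Zfp992, Zfp609, Zfp322a and Zfp281. The first 4 belong to the chromosome 4 cluster.

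Single sites were rarely found in both genotypes, over Zfp genes as over the rest of these chromosomes. Of the WT members, 4 overlapped a KO peak (1.38%, interval 0.377 to 3.49), against 0.837% of all WT peaks on these chromosomes. Of the KO members, 3 overlapped a WT peak (1.11%, 0.229 to 3.2), against 1.08% of all KO peaks. The closest match was inside Zfp800 on chromosome 6, where the WT peak spanned 28270974 to 28271073 and the KO peak began at 28270976 and had the same end. It had 6 fragments in both lists, folds of 4.14 and 4.46, and summits 3 bp apart. The site inside Zfp292 on chromosome 4, at 34862922 to 34863058 in WT, had 5 fragments in both lists and summits 19 bp apart. The Zfp944 site on chromosome 17 had 5 WT and 4 KO fragments and an overlap of 36 bp. At Zfp972 on chromosome 2 the WT and KO peaks, of 4 fragments each, overlapped by 23 bp, and the KO peak lay just outside the window.

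Zfp genes on a list of known roles carried peaks more often than protein-coding genes in general, and the list holds many long genes. Of its 42 genes, 28 had a WT peak (66.7%, against 43.1%), 21 a KO peak (50%, against 30.5%), 19 both (45.2%, against 22.4%) and 12 neither (28.6%, against 48.8%). Their median length was 31.9 kb. All 14 over 100 kb had a WT peak and 13 a KO peak (92.9%), against 95.9% and 85.7% of all protein-coding genes over 100 kb. The 14 include Zfp407, Zfp804b, Zfp536, Zfp609, Zfp148, Zfp423 and Zfp704, given above. Of the 28 shorter ones, 14 had a WT peak (50%, against 36.5% of all protein-coding genes up to 100 kb) and 8 a KO peak (28.6%, against 23.5%). These 28 were also longer, with a median of 21 kb against 14.4 kb of all protein-coding genes up to 100 kb. Among these shorter genes peaks were few. Zfp57 and Zfp445, which keep imprinted regions methylated, had 0 WT and 1 KO peak, and 1 and 2. Zfp809, which silences retroviral DNA, had 1 of each, with 5 WT and 4 KO fragments, and the KO peak also lies in the window of Zfp599. The RNA-binding genes Zfp36, Zfp36l1 and Zfp36l2, of 2.44 to 5.25 kb, had none in either list. Neither did Zfp42, the pluripotency marker also called Rex1, nor Zfp410, an activator of Chd4.

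The genes of the silencing machinery that KRAB zinc finger proteins recruit were read in the same way. Of 29 such genes on these chromosomes, 16 had a WT peak (55.2%, against 43.1%) and 10 a KO peak (34.5%, against 30.5%), with medians of 1 and 0 peaks per gene, against 0 and 0 over all protein-coding genes. Trim28, the shared corepressor, was 1 of 11 among the 29 with none in either list, against 48.8% of all protein-coding genes. Setdb1, its partner methyltransferase, had 0 WT and 4 KO peaks of up to 8 fragments. Atf7ip, a SETDB1 cofactor, had 4 and 5. The DNA methyltransferase gene Dnmt3a, of 113 kb, had 6 WT and 0 KO peaks. The H3K9 methyltransferase gene Ehmt1 had 7 and 2, and Smarcad1, a TRIM28-binding remodeller, had 5 and 2. The 29 genes had a median length of 33.7 kb, against 17.5 kb over all protein-coding genes, and their counts were not set against gene length.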

How the data were processed

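The submitters' processing notes name cutadapt 1.9.3, Bowtie2 2.2.4 and the build mm10. Alignment names in the headers carry the words cutadapt, bowtie2 and rmdup. MACS2 (2.1.1.20160309) ran in paired-end mode on each IP with its own input at a p cutoff of 0.001, per the file headers, keeping at most 2 fragments with the same ends. WT had 13615838 IP and 9385834 input fragments after filtering, and KO had 15468265 and 10000823. The deposited pileup is a signal, the IP fragments over the summit. The deposited fold is a ratio of pileup to local background, and the background given here was worked back from both, taking the caller's pseudocount as 1. The authors' p and q values are deposited as −log10. The headers say that q is not calculated, but the column holds values, which were used in an alternative and to describe peaks. Fold, p and q are the authors' own values per peak.

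RefSeq annotation of GRCm38.p6 (the mm10 assembly) gave the gene positions, and its promoter table the strands. Densities are peaks overlapping merged windows by at least 1 bp, per Mb. Intervals are exact at 95% (Poisson for densities, conditional binomial for ratios, Clopper-Pearson for shares; scipy 1.17.1). No p-value was computed, since each group has 1 library. The chromosomes were counted from their first to their last peak.

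The members, gene lists and clusters were chosen with earlier results of these data known. Named were the genes with the most peaks, the strongest members, the strongest peaks near ends, shared sites, the genes of most peaks in the 6 largest clusters and a list of known genes, of which Zfp95 and Zfp125 were not found under these symbols. Alternatives were a q threshold, a fragment minimum, other windows, clusters and overlaps, lists of equal length and, added after seeing the data, leaving out the chromosome 4 cluster or long genes.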

Additional observations from a re-analysis of the deposited data

How the results depend on the processing

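Of 132 values under 13 alternative settings for 16 results, 33 moved out of the counting interval or, for counts, by more than 1.5 times. Of 54 log2 ratios, 8 changed sign, in 3 results whose own interval included 0: the KO to WT ratio of members (at the q threshold and with lists of equal length), the KO ratio of Zfp to other genes (without the chromosome 4 cluster) and, in 5 settings, the WT ratio of clustered to other Zfp genes. No log2 ratio whose own interval excluded 0 changed sign. A caller q of 0.05 or smaller keeps fewer peaks, and it falls at fewer fragments in KO than in WT. At this q the members numbered 24 in WT and 87 in KO. The log2 density ratio of Zfp to other genes was then -0.64 in WT, the share of Zfp genes with a peak 5.67% and 14.7%, and the WT share near ends 33.3%. The log2 ratio of clustered to other Zfp genes was 0.40 in WT and 1.46 in KO, Psmd14 had 0 and 4 peaks, the overlap between lists was 0% both ways, and the log2 KO to WT ratio of members was 1.86 (1.19 to 2.57), or 0.73 relative to all peaks, against -0.10 and 0.28 in the whole lists. With at least 5 fragments the members numbered 190 and 165, the gene shares were 30.9% and 24.5%, and Psmd14 had 4 WT peaks. With the same number of strongest peaks from both lists the log2 KO to WT ratio was 0.31 (0.05 to 0.58) and the WT gene share 33.5%. For the gene alone the WT gene share was 33.5% and the shares near ends 10.1% and 12.8%, and with 5 kb on either side the WT gene share was 45.9%. Within 1 kb of ends the shares were 8.62% and 9.59%. In the alternatives chosen after seeing the data, leaving out the chromosome 4 cluster gave KO log2 density ratios of -0.20 (Zfp to other genes, against 0.05) and 0.45 (clustered to other Zfp genes). Leaving out genes over 100 kb gave 181 and 169 members, with 29.8% and 30.2% near ends. Windows and filters that hold fewer peaks or less DNA change these numbers by construction, and the cause of the other changes was not tested. No paired analysis was possible because each group holds 1 library, and for the same reason no replicate could be left out. Members of 4 or 5 fragments limit what can be said of single sites, and a site without a peak was not shown to lack the mark.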

Other observations

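Other zinc finger families were denser in WT peaks than the Zfp genes. The 90 genes with Zkscan, Zscan, Zbtb, Zic, Klf and Zfhx symbols were taken by symbol alone, so not every one need encode a zinc finger protein. They had 146 WT peaks in 4.6 Mb of windows (31.8 per Mb, exact Poisson interval 26.8 to 37.4) and 103 KO peaks (22.4 per Mb, 18.3 to 27.2). Against the Zfp windows the density ratio was 1.59 in WT (1.29 to 1.95) and 1.2 in KO (0.947 to 1.51). Zbtb20, a repressor active in hepatocytes, held 37 peaks in each list over 759 kb, with up to 10 fragments in both. Without it the families had 28.4 peaks per Mb in WT (23.4 to 34.3) and 17.2 in KO (13.3 to 21.9). Klf12 had 17 WT and 12 KO peaks, and the homeobox zinc finger genes Zfhx3 and Zfhx4 had 10 and 9, and 8 and 10. Zbtb7c leaned to WT with 10 and 2 peaks. By gene, 43 of the 90 had a WT peak (47.8%, against 43.1% of all protein-coding genes) and 24 a KO peak (26.7%, against 30.5%).

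Olfactory receptor genes, another family in clusters of similar copies, had a density close to that of the Zfp genes. Their windows held 119 WT peaks (18.4 per Mb, 15.2 to 22) and 103 KO peaks (15.9 per Mb, 13 to 19.3). The Zfp to Olfr density ratio was 1.09 in WT (0.877 to 1.36) and 1.18 in KO (0.934 to 1.49). The KO odds relative to all other peaks were 1.12 (0.855 to 1.48). Over chromosomes, Zfp genes of chromosome 16 had 6 WT and 12 KO peaks from 5 genes. Zfp148 held 2 and 7 of them, Zfp654 held 4 and 1, Zfp263 held 0 and 1, and the overlapping genes Zfp174 and Zfp597 share the remaining 3 KO peaks. Zfp263 was named only to account for every gene of that chromosome. Zfp genes of chromosome 2 had 32 and 17 peaks from 27 genes.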
